A study of Mus musculus with 24 samples.

Results

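The 10 genes described here mark the resident macrophages of bone marrow: Csf1r, Mrc1, Cd163, C1qa, C1qb, C1qc, Mertk, Adgre1, Cd68 and Vcam1. They were taken by symbol from the array's annotation, as 10 of the 19938 genes measured, by a rule that uses no expression value, although the list was drawn up with earlier results of these data known. Each was read by 1 probe set, so no choice among probe sets was needed. The title of the study names its question, how loss of Pax5 and a change in metabolism bear on precursor B cell acute lymphoblastic leukaemia driven by BCR/ABLp190.

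The data came from 24 mouse gene arrays, 1 per sample, in 6 groups. In the leukaemia set, RNA of tumour-bearing marrow came from 7 Sca1-BCR/ABLp190+Pax5+/- mice, which carry a single working copy of Pax5 and are called heterozygous here, and from 2 Sca1-BCR/ABLp190 mice, which keep both copies. The controls of that set were B220+ marrow B cells of 5 wild-type (WT) mice. In the precursor set, proB and preB cells were taken before leukaemia from 3 Sca1-BCR/ABLp190+Pax5+/- mice, 3 Sca1-BCR/ABLp190 mice and, by the sample labels, 4 WT mice, although the series text counts 3 of these. Both transgenic genotypes carry BCR/ABLp190 under the Sca1 promoter, which is active in blood stem and progenitor cells, and the WT mice carry neither allele. The labels give no ages. The controls and precursors are sorted B lineage cells, whereas no sort is named for the leukaemic marrow. Leukaemia and the way the cells were isolated therefore cannot be told apart in any comparison of leukaemia with B220+ cells. A difference in the number of macrophages and a difference in RNA per macrophage cannot be told apart either. Replicates are labelled biological, and p-values measure the spread between these samples.

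Marrow macrophages sit in erythroblast islands and along sinusoids, where they clear dying cells and expelled nuclei and recycle iron. They depend on CSF1R, the receptor for the growth factors CSF1 and IL-34, and on transcription factors such as PU.1 and the MAF proteins. MRC1 and CD163 are uptake receptors, for mannose-bearing glycoproteins and for haemoglobin bound to haptoglobin. C1q, assembled from the A, B and C chains, opens the classical complement pathway and tags dying cells, which MERTK helps macrophages to engulf. ADGRE1, an adhesion receptor of mature macrophages, and CD68, a lysosomal glycoprotein, are general macrophage markers. VCAM1 holds erythroblasts and other VLA-4-bearing cells. In B cells PAX5 represses Csf1r, so Csf1r is the member of the list with a known link to the deleted allele. Vcam1 is also made by marrow stroma, and Mrc1 by sinusoidal endothelium.

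Upstream sequences are shown for 4 members because their levels moved together across the leukaemias (C1qb, C1qc and Mertk) or rose by over 4 log2 units (Mrc1). The sequences are the 250 bases before the start of the gene in RefSeq on GRCm38.p6, which held 6 of the 10 members: Mrc1, C1qb, C1qc, Cd163, Cd68 and Mertk. They are written 5′ to 3′ on the strand of the gene, and capitals mark GAGGAA, the core bound by PU.1, or its reverse complement TTCCTC, and TGCTGA, the core of the MAF recognition site. Mrc1 lies at chr2:14229164-14229413 (plus strand), C1qb at chr4:136886201-136886450 (minus strand), C1qc at chr4:136892915-136893164 (minus strand) and Mertk at chr2:128698665-128698914 (plus strand).
Mrc1: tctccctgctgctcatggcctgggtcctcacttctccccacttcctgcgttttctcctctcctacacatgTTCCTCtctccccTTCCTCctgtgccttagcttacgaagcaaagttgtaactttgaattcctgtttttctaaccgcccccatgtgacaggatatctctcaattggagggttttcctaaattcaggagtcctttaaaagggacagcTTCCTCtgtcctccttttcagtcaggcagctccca
C1qb: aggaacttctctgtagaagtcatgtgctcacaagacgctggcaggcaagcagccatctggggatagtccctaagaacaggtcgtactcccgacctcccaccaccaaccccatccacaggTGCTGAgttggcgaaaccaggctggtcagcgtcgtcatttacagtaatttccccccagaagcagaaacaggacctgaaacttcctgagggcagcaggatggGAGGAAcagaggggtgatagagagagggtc
C1qc: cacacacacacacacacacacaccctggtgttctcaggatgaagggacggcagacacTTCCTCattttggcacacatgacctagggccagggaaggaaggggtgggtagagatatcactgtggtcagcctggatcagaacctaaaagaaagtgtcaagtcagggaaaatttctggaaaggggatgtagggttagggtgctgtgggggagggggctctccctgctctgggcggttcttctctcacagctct
Mertk: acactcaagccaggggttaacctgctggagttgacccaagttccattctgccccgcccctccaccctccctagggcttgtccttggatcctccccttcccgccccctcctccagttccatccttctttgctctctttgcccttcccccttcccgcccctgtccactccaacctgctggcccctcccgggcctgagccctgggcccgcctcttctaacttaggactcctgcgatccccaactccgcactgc

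GAGGAA was searched on both strands and stood 3 times in the Mrc1 window, each time as the reverse complement, ending 175, 162 and 30 bases before the start. C1qb held it once, 30 to 25 bases before the start, together with TGCTGA at 131 to 126. C1qc held the reverse complement at 193 to 188, and Cd68 held the core at 225 to 220. Neither Mertk nor Cd163 held either motif, and no window held TATAAA. Of 32851 RefSeq promoters of the same length, 23.3% held GAGGAA, 16.1% held TGCTGA and 12.4% held TATAAA on either strand. These matches describe letters in the windows. They do not show binding.

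Values are the authors' normalised log2 intensities, in which a difference of 1 is a doubling, and levels of different probe sets are not set against each other. Correlations between arrays ran from 0.906 to 0.995. Of 10 B lineage marker genes fixed as a list, 7 were lower in heterozygous leukaemia than in B220+ cells. The mean level of that list was 9.07 to 10.70 on the 7 heterozygous arrays, 8.63 and 9.10 on the arrays with both copies, and 11.87 to 12.13 on the B220+ arrays. Pax5, the targeted gene, read 11.58 to 12.00 in heterozygous precursors and 11.81 to 12.02 in WT precursors, and the deleted part may lie outside its probe set, so this does not check the labels. Heterozygous leukaemia array 7 stood apart from the other 6 for most members, and values that rest on it are given with and without it.

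All 10 members were higher in heterozygous leukaemia than in WT B220+ cells (limma with Benjamini-Hochberg adjustment over 19938 genes, adjusted p below 0.05), against 12.9% of all genes. Their median difference was 3.18 log2 units, and that of all genes was -0.060. The 7 leukaemia arrays lay above all 5 B220+ arrays for 8 members, a pattern that 8.65% of all genes showed. The members that overlapped were Cd163 and Cd68, and in both the overlap came from array 7.

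**Figure D1:**
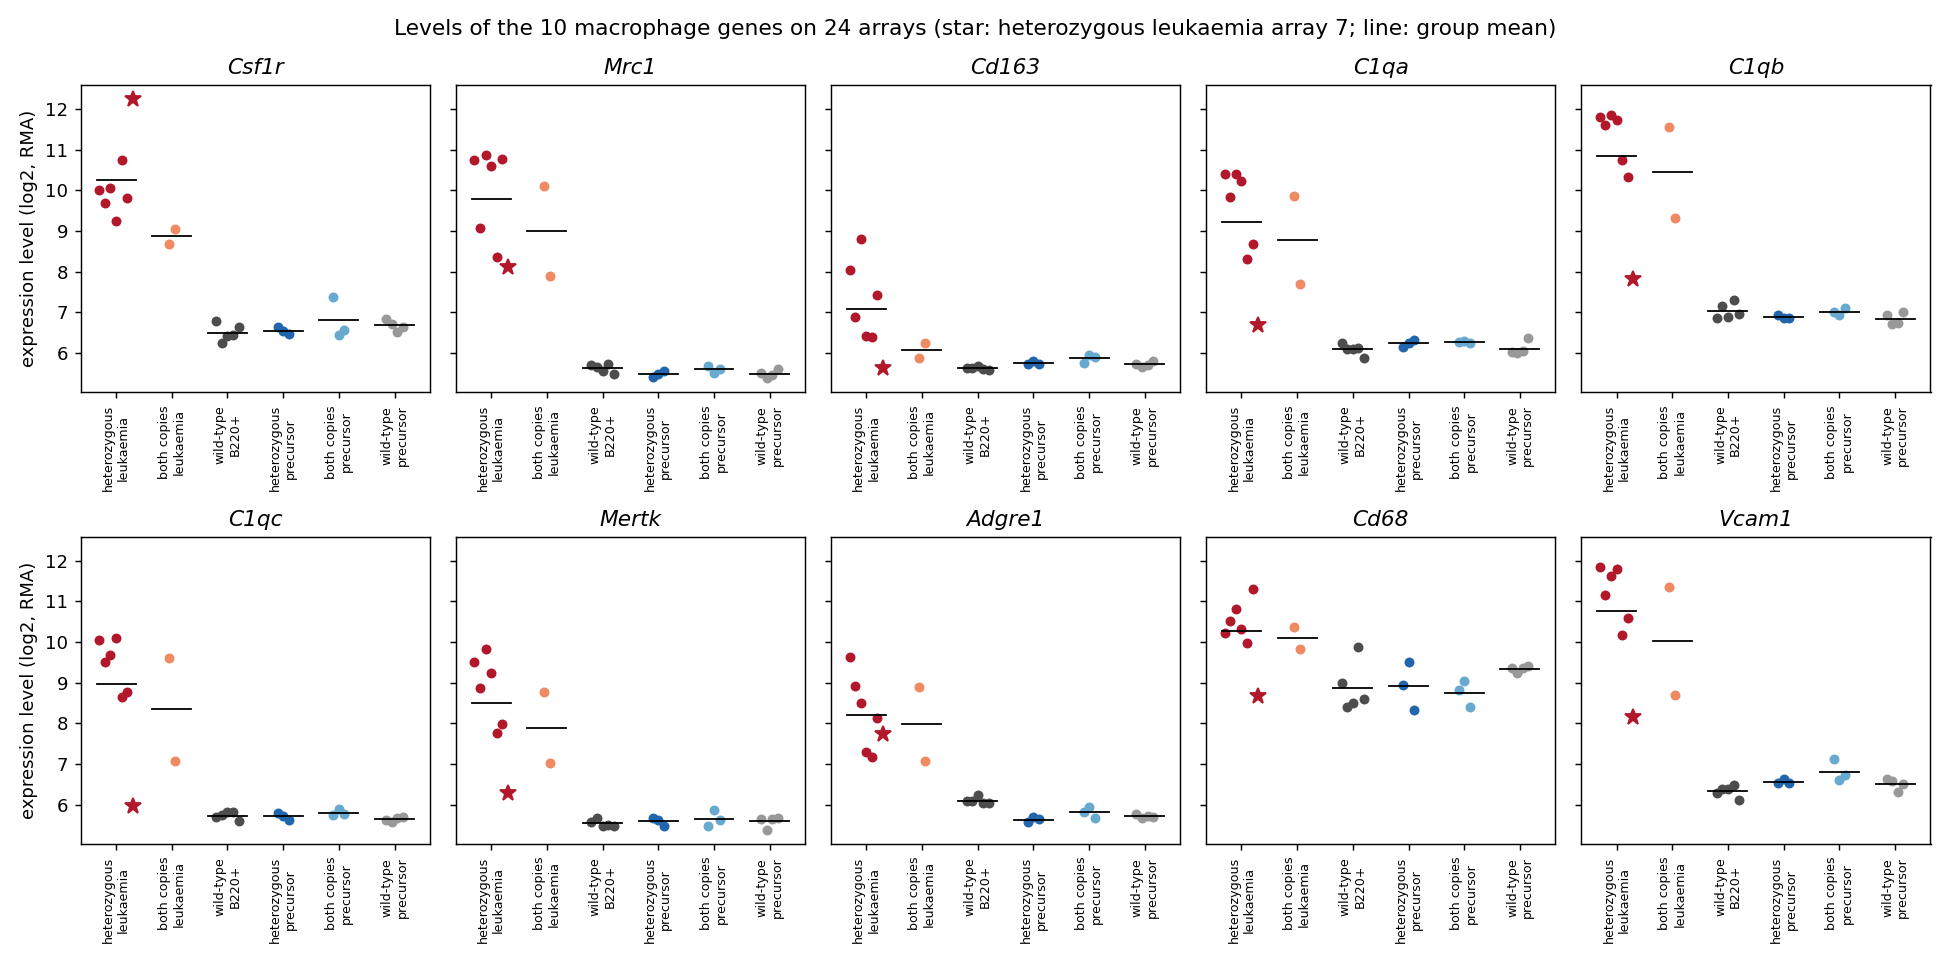
Log2 level of each of the 10 members on each array, by group, with a panel per gene; points are arrays, lines are group means and the star marks heterozygous leukaemia array 7. For the members other than Cd68 the sorted B cell groups sit low and close together, and most leukaemia arrays sit higher with a wide spread. The Cd68 panel has sorted arrays up to 9.87, and its star at 8.69 lies among them. For Csf1r the star is the highest point at 12.25, and for C1qc it is at 5.97, next to the controls.

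Csf1r, the receptor on which macrophages depend, read 10.002, 9.68, 10.06, 9.24, 10.75, 9.80 and 12.25 on the 7 heterozygous leukaemia arrays. The 5 B220+ arrays read 6.78, 6.25, 6.41, 6.44 and 6.64. No leukaemia array came near the controls, and array 7 was the highest. The difference was 3.75 ± 0.41 log2 units (SE, 7 against 5 arrays), a 13.4-fold higher level with an adjusted p of 2.75e-05. Without array 7 it was 3.42.

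Mrc1, the mannose receptor, read 10.75, 9.06, 10.88, 10.60, 8.36, 10.77 and 8.12 in heterozygous leukaemia and 5.72, 5.65, 5.57, 5.73 and 5.49 in B220+ cells. Arrays 5 and 7 were the lowest of the leukaemias, yet both stood above every control. The difference was 4.16 ± 0.56 log2 units (17.8-fold, adjusted p 0.000134), and 4.44 without array 7. Cd163, the haemoglobin-haptoglobin receptor, varied more between leukaemias, at 8.03, 6.89, 8.81, 6.43, 6.39, 7.42 and 5.63. Its B220+ arrays lay between 5.60 and 5.68, so array 7 was at the level of the controls while array 3 was the highest. The difference was 1.46 ± 0.44 (2.75-fold, adjusted p 0.0231), and 1.70 without array 7.

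The C1q chains behaved alike. C1qa read 10.40, 9.84, 10.39, 10.23, 8.32, 8.67 and 6.69 in heterozygous leukaemia against 5.88 to 6.25 in B220+ cells. C1qb read 11.79, 11.61, 11.85, 11.73, 10.73, 10.33 and 7.81 against 6.86 to 7.30. C1qc read 10.06, 9.52, 9.68, 10.10, 8.65, 8.77 and 5.97 against 5.59 to 5.83. In each chain arrays 1 to 4 were the highest, arrays 5 and 6 lay between, and array 7 was the lowest, just above the controls. The mean of the 3 chains, taken as a difference from the B220+ mean, was 4.46, 4.03, 4.35, 4.40, 2.95, 2.97 and 0.53 log2 units on arrays 1 to 7. The differences between groups were 3.13 ± 0.62 for C1qa (adjusted p 0.00202), 3.803 ± 0.64 for C1qb (adjusted p 0.000708) and 3.22 ± 0.65 for C1qc (adjusted p 0.00234). Without array 7 they were 3.55, 4.31 and 3.72.

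Mertk, the receptor for engulfing dying cells, read 9.51, 8.88, 9.83, 9.24, 7.76, 7.99 and 6.29 in heterozygous leukaemia against 5.48 to 5.67 in B220+ cells. The order was close to that of the C1q chains, with arrays 5, 6 and 7 the lowest. The difference was 2.95 ± 0.54 log2 units (7.74-fold, adjusted p 0.00118), and 3.32 without array 7.

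Adgre1, the surface marker of mature macrophages, read 9.62, 8.92, 8.49, 7.30, 7.18, 8.12 and 7.74 against 6.04 to 6.25, so here array 7 lay inside the range of the others. Its difference was 2.09 ± 0.42 (4.26-fold, adjusted p 0.00213). Cd68 was the member with the highest control arrays relative to its leukaemia arrays. It read 10.23, 10.52, 10.82, 10.31, 9.98, 11.31 and 8.69 in heterozygous leukaemia against 8.99, 8.40, 8.50, 9.87 and 8.59 in B220+ cells. The first and the fourth B220+ arrays lay above array 7, and the fourth lay just under array 5. The difference was 1.40 ± 0.39 (2.63-fold, adjusted p 0.0161), and 1.66 without array 7. With the WT precursors as control it was 0.92, with an adjusted p of 0.0556.

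Vcam1, the adhesion molecule, read 11.84, 11.15, 11.63, 11.80, 10.18, 10.58 and 8.17 in heterozygous leukaemia against 6.13 to 6.49 in B220+ cells. It had the largest difference of the 10 members in this comparison, 4.42 ± 0.61 log2 units (21.5-fold, adjusted p 0.000167), and 4.86 without array 7. Array 7 was the lowest leukaemia and still above every control. Stromal markers moved beside it: 11 of 13 measured stromal genes other than Vcam1 were higher, with a median difference of 2.24 log2 units. Their part in the result was not tested.

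Fewer members passed in the leukaemias that keep both copies of Pax5. Of the 10 members 7 were higher than in B220+ cells and none lower, against 9.48% of all genes that were higher. This comparison shares its 5 controls with the one above and has only 2 leukaemia arrays. Both arrays lay above all controls for 9 members, which 16.9% of all genes did. Csf1r read 8.68 and 9.06, Mrc1 10.09 and 7.89, Vcam1 11.37 and 8.69, C1qb 11.55 and 9.33. The pair therefore differed widely: array 1 was higher than array 2 for 8 members, by 0.55 log2 units for Cd68 to 2.67 for Vcam1, whereas Csf1r was 0.38 and Cd163 0.37 lower on array 1.

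The differences from B220+ cells in the leukaemias with both copies were 2.36 ± 0.58 log2 units for Csf1r (adjusted p 0.0122), 3.36 ± 0.80 for Mrc1 and 3.69 ± 0.87 for Vcam1. C1qa differed by 2.69 ± 0.88 (adjusted p 0.0460), C1qb by 3.41 ± 0.92, Adgre1 by 1.88 ± 0.59 and Mertk by 2.35 ± 0.77 (adjusted p 0.0455). C1qc, at 2.61 ± 0.93 (adjusted p 0.0629), Cd68, at 1.23 ± 0.56 (adjusted p 0.134), and Cd163, at 0.44 ± 0.63 (adjusted p 0.632), did not pass. Array 1 decided the count: without it, with the single array left assumed to vary like the other groups, no member passed, and Csf1r was at 2.55 with an adjusted p of 0.0574. Without array 2, 7 members passed, with C1qc (3.87, adjusted p 0.0257) among them and Csf1r (2.17, adjusted p 0.0655) not. Leaving out any single B220+ array gave 4, and without the first of them these were Csf1r, Mrc1, Vcam1 and C1qb.

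Between the leukaemia genotypes no member passed, against 1.87% of all genes in either direction, and Csf1r alone had an unadjusted p under 0.05 (limma). For Csf1r the heterozygous arrays read 9.24 to 12.25 and the arrays with both copies 8.68 and 9.06. The mean difference was 1.39 ± 0.56 log2 units, with an interval (95%) of 0.18 to 2.59 and an adjusted p of 0.267. Without array 7 the difference was 1.05, with an adjusted p of 0.110. The intervals of the other 9 members all included 0 and reached from -1.51 to 2.55, so these arrays do not show that the genotypes are alike. Without array 2 of the both-copies group, 8 of the 10 members were lower in heterozygous leukaemia, by between -0.72 and -0.10 log2 units. Without array 1 instead, all 10 were higher, as for Vcam1, with a heterozygous mean of 10.77 against 8.69 on array 2.

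**Figure D2:**
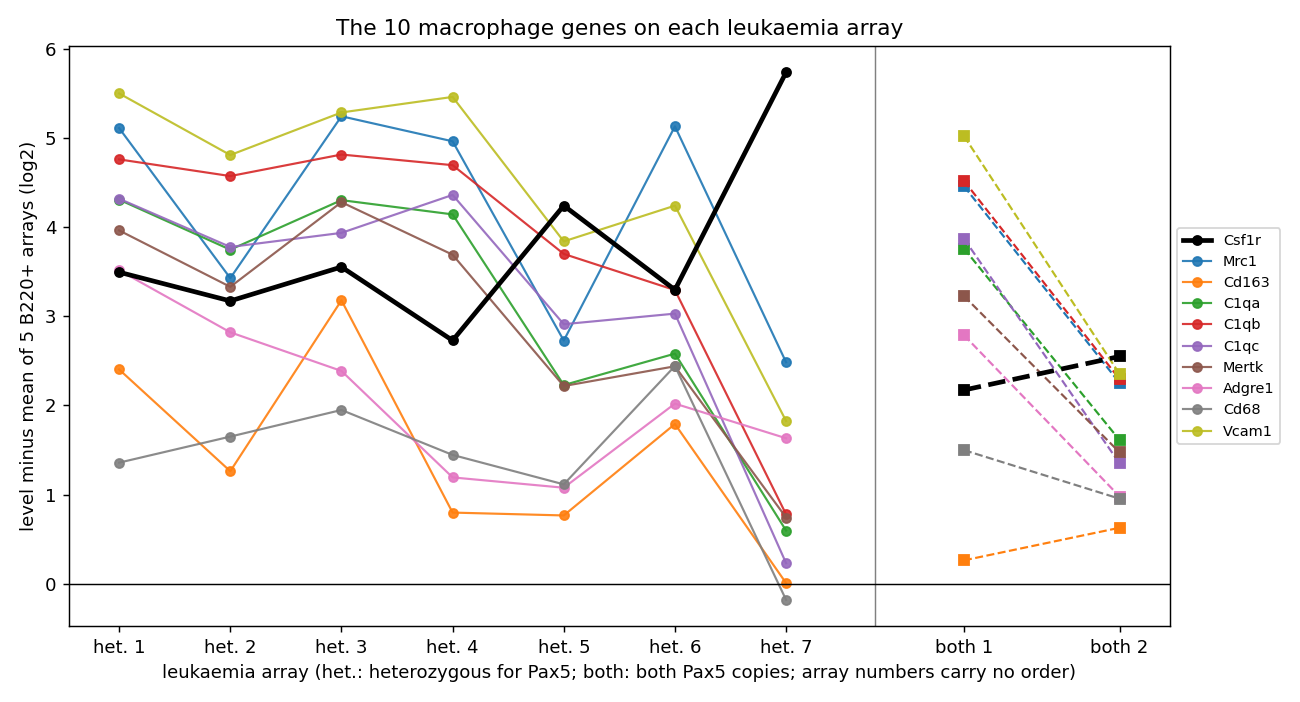
Level of each member on each leukaemia array minus the mean of the 5 B220+ arrays, in log2 units, with a line per gene joining arrays that have no order. Csf1r (thick line) is highest on heterozygous array 7, where the 3 C1q chains and Vcam1 are at their lowest among the heterozygous arrays.

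The members' levels had a larger SD over the heterozygous leukaemia arrays than over the B220+ arrays for each of the 10. The median of the 10 members above the B220+ mean was 4.14, 3.38, 4.11, 3.92, 2.48, 2.81 and 0.76 log2 units on heterozygous arrays 1 to 7, and 3.49 and 1.54 on the arrays with both copies. All 10 members were above the highest B220+ array on heterozygous arrays 1 to 6 and on both-copies array 1. On heterozygous array 7 the count was 8, without Cd163 and Cd68, and on both-copies array 2 it was 9, without Cd68.

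Array 7 had the highest Csf1r of all heterozygous leukaemias and the lowest level of 8 other members. Csf1r at 12.25 stood 2.32 log2 units above the mean of the other 6 arrays, which was 9.92 ± 0.50 (SD). For C1qb and C1qc the difference from the other 6 was -3.53 and -3.49. It was -3.03 for Vcam1, -2.96 for C1qa, -2.58 for Mertk, -1.95 for Mrc1, -1.84 for Cd68 and -1.69 for Cd163. Adgre1, at -0.54, lay within the range of the other arrays.

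Other cell types moved with this array. It had the lowest mean level of the 7 heterozygous arrays in 9 of 13 cell type lists, those of tissue macrophages, monocytes, neutrophils, osteoclasts, stroma, endothelium, megakaryocytes, erythroid cells and T and NK cells. Its B lineage mean was 9.87, inside the range of the others, and its Pax5 level was 12.06 against 8.37 to 10.95 on the other 6. The list of 15 tissue macrophage genes other than the members was at 6.69 on array 7 and 7.49 to 9.35 on the others, with B220+ arrays at 6.41 to 6.52. The list mean on array 7 was thus above every B220+ array. A single gene of the list, Siglec1, the sialoadhesin of resident macrophages, went the other way. Chosen for its role and outside the naming rule, it read 6.40 on array 7, under the 6.59 to 6.76 of the B220+ arrays. The part of these in the members' levels was not tested.

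Over the 7 heterozygous leukaemias no relation of Csf1r with another member passed the test. Pearson's r with Csf1r was below 0 for all 9, from -0.25 for Adgre1 to -0.93 for C1qc. For C1qc the exact permutation p was 0.0294 and for Vcam1, at -0.91, it was 0.0325 (two-sided). Of the 9 relations 3 had an unadjusted p under 0.05 and none passed after adjustment, the lowest adjusted p being 0.103. Spearman's rho ran from -0.71 to -0.21. Without arrays 4 and 7, the farthest from the median of Csf1r, r stayed below 0 for all 9, between -0.69 for Adgre1 and -0.25 for C1qb. That of C1qc was -0.44 and that of Vcam1 -0.49, so these depended on the arrays left out.

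**Figure D3:**
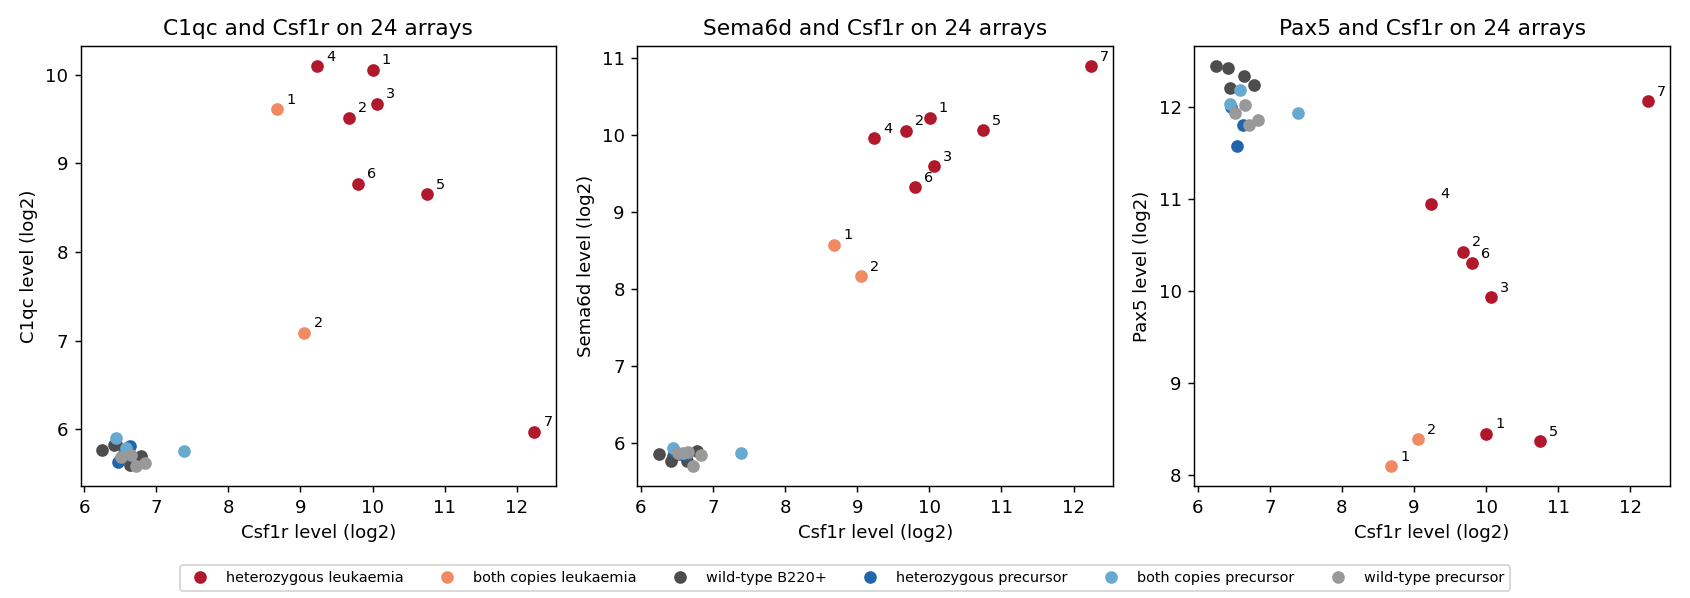
Log2 levels of C1qc, Sema6d and Pax5 against Csf1r on the 24 arrays, coloured by group, with leukaemia arrays numbered by replicate. Heterozygous array 7 has the highest Csf1r and Sema6d, a C1qc of 5.97 and a Pax5 of 12.06.

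Before leukaemia the members stayed at levels close to WT. No detection threshold was set, so low levels in these sorted cells cannot be told from background. Between heterozygous and WT precursors no member passed (limma; none had an unadjusted p under 0.05), against 4.17% of all genes, and the members' median difference was 0.013 log2 units. Csf1r read 6.63, 6.55 and 6.47 in heterozygous precursors, 7.38, 6.45 and 6.58 in those with both copies and 6.84, 6.72, 6.52 and 6.65 in WT. The groups overlapped, and array 1 of the both-copies group stood above the rest. The mean levels of other cell type lists were also high on that array against the other arrays of its group: 10.70 against 7.57 and 7.22 for neutrophils, 8.19 against 7.46 and 7.21 for monocytes, and 9.04 against 8.05 and 7.996 for erythroid cells. Their part in the Csf1r level was not tested. Cd68 had the largest difference, -0.42 ± 0.24 (adjusted p 0.322), with heterozygous arrays at 8.94, 9.51 and 8.32 and WT arrays at 9.36, 9.23, 9.37 and 9.40. With array weights it was -0.41, with an adjusted p of 0.0477. The mean level of the dendritic cell list was 8.48, 8.69 and 7.72 on these heterozygous arrays. It was 8.10, 8.57 and 7.86 on those with both copies and 8.82 to 9.07 on the WT arrays. The part of these cells in the Cd68 level was not tested.

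In precursors with both copies no member passed against WT, while 27.1% of all genes did. With limma 3 members had an unadjusted p under 0.05: Vcam1 at 0.31 ± 0.12 log2 units (adjusted p 0.0780), C1qc at 0.16 ± 0.06 (adjusted p 0.0810) and Cd68 at -0.59 ± 0.24 (adjusted p 0.0912). Vcam1 read 7.12, 6.61 and 6.73 against 6.63, 6.58, 6.33 and 6.50, and C1qc 5.75, 5.90 and 5.79 against 5.62, 5.58, 5.69 and 5.70. Cd68 read 8.82, 9.04 and 8.40 against 9.36, 9.23, 9.37 and 9.40. Single members passed under other settings: C1qa was higher with the replicate block (0.25, adjusted p 0.0352) and without WT array 4 (0.25, adjusted p 0.0183), Cd163 without both-copies array 1 (0.20, adjusted p 0.0427), Vcam1 without both-copies array 2 (0.41, adjusted p 0.0488) and C1qc with array weights (0.18, adjusted p 0.0477). Cd68 was lower with array weights (-0.55, adjusted p 0.0336) and with only these groups in the fit (-0.59, adjusted p 0.0146). The shifts other than that of Cd68 were small beside the SD within heterozygous leukaemia. For Cd68 that SD was 0.82, and it was 0.39 in leukaemia with both copies. Csf1r differed by 0.12 ± 0.19, and by -0.17 without the both-copies array that stood high. Between the preleukaemic genotypes no member passed, against 0.0251% of all genes, and Adgre1 alone had an unadjusted p under 0.05 (limma), at -0.18 ± 0.07 with an adjusted p of 0.321.

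Between B220+ cells and WT precursors no member passed with limma, and none had an unadjusted p under 0.05, against 8.84% of all genes that passed. Adgre1 read 6.10, 6.09, 6.25, 6.04 and 6.05 in B220+ cells and 5.78, 5.67, 5.73 and 5.70 in precursors. Its difference was 0.38 ± 0.38 (adjusted p 0.674) when all 24 arrays shared the estimate of spread. With only these 9 arrays in the fit, a choice made after the data were seen, the adjusted p was 0.000418. With array weights Cd68 was lower in B220+ cells, at -0.60 with an adjusted p of 0.0476.

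Set against preleukaemic cells of the same genotype, the members were again higher in leukaemia. All 10 were higher in heterozygous leukaemia than in heterozygous precursors, against 16.4% of all genes. For 8 of them the arrays did not overlap, as for 10.7% of all genes. Csf1r differed by 3.71 ± 0.40 log2 units, Mrc1 by 4.30 ± 0.53, C1qb by 3.95 ± 0.61, and Vcam1 by 4.19 ± 0.58. The smallest differences were those of Cd163, 1.33 ± 0.41 (adjusted p 0.0142), and Cd68, 1.34 ± 0.40 (adjusted p 0.0106). With both copies 9 were higher than in precursors, against 18.1% of all genes, and 9 did not overlap, against 22.8%. Cd163 was the member that did not pass, at 0.20 ± 0.55 (adjusted p 0.790). Without both-copies array 1 the count was 2, Csf1r at 2.25 and Mrc1 at 2.28. In these comparisons the stage of disease, the set of arrays and the isolation of the cells cannot be told apart.

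The change in leukaemia exceeded the change in precursors when each was taken against its own WT group. For the heterozygous genotype 9 members had a larger change in leukaemia, against 12.4% of all genes, by 3.88 ± 0.56 log2 units for Csf1r, 4.16 ± 0.74 for Mrc1 and 4.36 ± 0.81 for Vcam1. Cd163, at 1.43 ± 0.58 (adjusted p 0.0653), did not pass; without heterozygous leukaemia array 3, 5 or 7 all 10 members did, and without heterozygous precursor array 3, 8 did. With both copies 8 members did, against 15.1% of all genes, by 2.24 ± 0.66 for Csf1r, 3.24 ± 0.87 for Mrc1 and 2.28 ± 0.84 for Mertk. C1qc, at 2.45 (adjusted p 0.0612), and Cd163, at 0.30 (adjusted p 0.743), did not. Without both-copies array 1 the count was 1, Csf1r at 2.43 with an adjusted p of 0.0283.

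**Figure D4:**
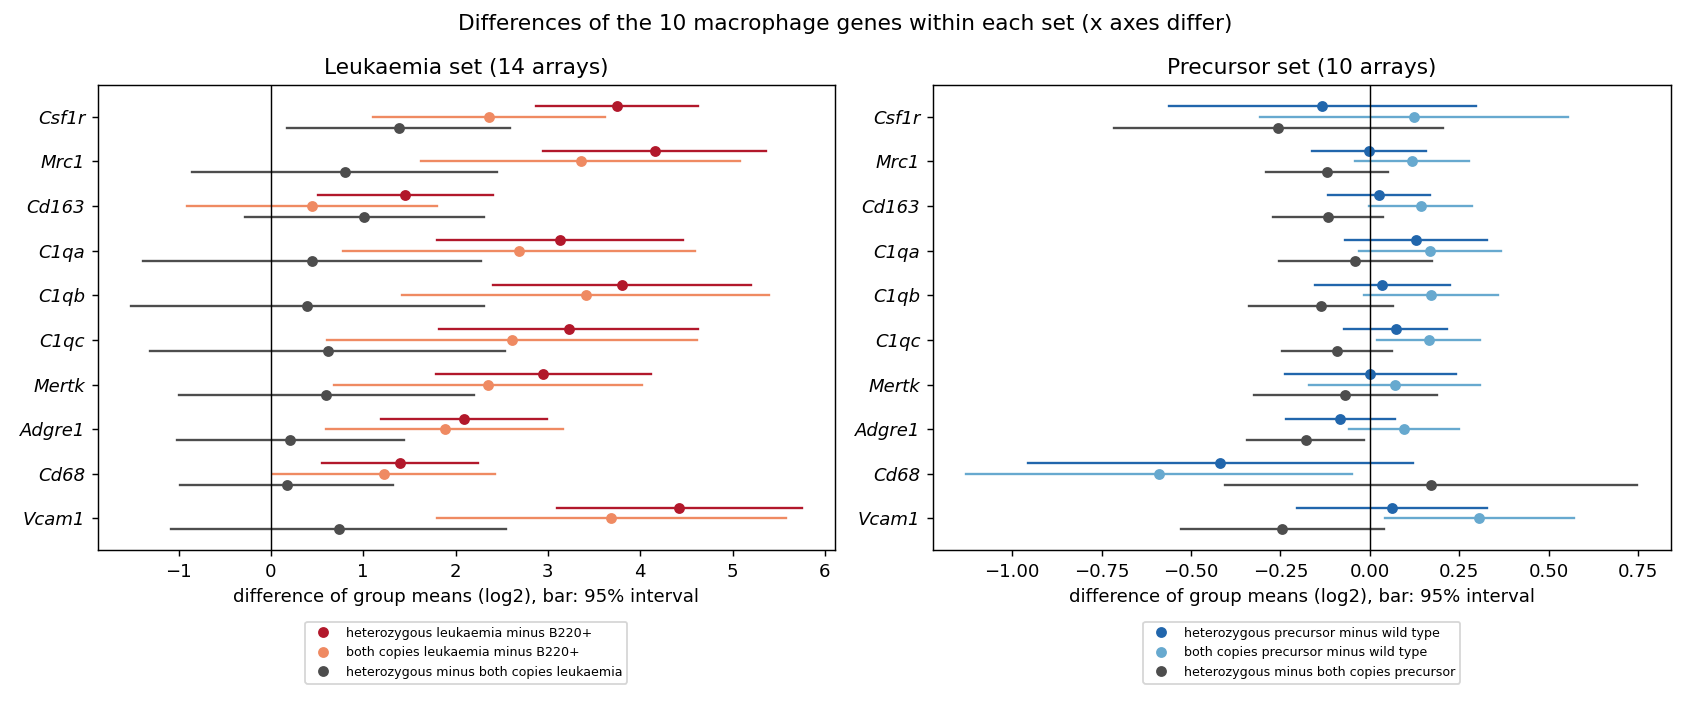
Differences of the 10 members in log2 units with intervals (95%), for comparisons of the leukaemia set on the left and of the precursor set on the right, whose x axes differ in scale. All 10 intervals of heterozygous leukaemia against B220+ cells lie above 0. The precursor differences run from -0.59 for Cd68 to 0.31 for Vcam1, both with both copies against WT. There the intervals of Cd68, Vcam1 and C1qc leave out 0, as does that of Adgre1 between the preleukaemic genotypes.

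By mean level the 6 groups fell in the same order at the top for each member, with heterozygous leukaemia first and leukaemia with both copies next. These neighbours did not pass for any member in the fit of all 24 arrays, where Csf1r had an adjusted p of 0.0931. Of all genes 18.1% were higher in leukaemia than in precursors with both copies, the next group for Csf1r, Vcam1, C1qa, C1qc, Cd163 and Mertk. The step from leukaemia with both copies to the next group passed for 8 members, without a count of that step over all genes. That next group differed between members and was picked by the same means that were compared. The order itself was therefore not tested. The step did not pass for Cd163 (adjusted p 0.790) or Cd68 (adjusted p 0.295). Below that the 4 sorted groups overlapped with their neighbours for every member except Adgre1, a pattern not counted over all genes. For Adgre1 the B220+ cells stood 0.29 above precursors with both copies (adjusted p 0.655).

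The genes whose profile over the 24 arrays was most like the mean of the 10 members were found by the root mean square difference after centring each gene on its own mean. They were Emcn at 0.25 log2 units, Epas1 and Sdc3 at 0.28, Adgrf5 and Cp at 0.29, Axl at 0.30, Lrp1 at 0.31 and Tgm2 at 0.32. Emcn and Adgrf5 are known from endothelium and Axl from macrophage uptake of dying cells. By the same measure the members lay 0.24 (Mertk) to 1.00 (Csf1r) from their own mean profile, and Cd163 at 0.94 and Cd68 at 0.92 were nearly as far from it as Csf1r. C1qa and Mertk were nearest to each other, at 0.20, and C1qb and Vcam1 to each other, at 0.31. The gene nearest to Csf1r was Sema6d, a transmembrane semaphorin, at 0.49. Sema6d read 10.22, 10.05, 9.59, 9.96, 10.06, 9.32 and 10.89 on the heterozygous leukaemia arrays and 8.57 and 8.16 with both copies, so like Csf1r it was highest on array 7.

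Genes around the members in their pathways were read from 9 lists, beside all genes, of which 12.9% were higher and 18.9% lower in heterozygous leukaemia than in B220+ cells. Of 16 measured genes for the uptake of dying cells, 11 were higher and 1, the lipid exporter Abca1, was lower in heterozygous leukaemia than in B220+ cells, with a median of 1.21 log2 units. The receptor Lrp1 rose by 2.77 ± 0.34, the MERTK relative Axl by 3.36 ± 0.50 and the stabilin Stab2 by 2.50 ± 0.38. Of 14 scavenger and lectin receptors 7 were higher and none lower (median 1.31). Scarb1 rose by 1.19 ± 0.13, Clec4a1 by 3.25 ± 0.62 and Cd5l, secreted by macrophages, by 3.82 ± 0.81. Of 14 other complement genes 6 were higher and 1 lower. The C1 inhibitor Serping1 rose by 4.43 ± 0.48 and C4b by 1.69 ± 0.38, and the complement regulator Cd55 fell by 3.05 ± 0.41.

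The erythroblast island and iron recycling list had 8 of 14 genes higher and none lower, among them Emb at 2.61 ± 0.31 and Blvra, biliverdin reductase, at 1.11 ± 0.19. The lysosomal list had 8 of 16 higher and none lower, with cathepsin D (Ctsd) at 1.92 ± 0.24. Fc receptor and ITAM genes split, with 5 of 10 higher, such as Fcer1g at 2.03 ± 0.39, and 2 lower, such as the kinase Syk at -1.84 ± 0.12, which B cells also use. Of 11 integrins and adhesion genes 4 were higher, with the VLA-4 subunit Itgb1 at 1.50 ± 0.21, and 1 lower, Icam2 at -1.76 ± 0.22. The cytokine and activation list had 2 of 18 higher, a share near that of all genes (Tnf at 1.03 ± 0.19, Cd80 at 2.29 ± 0.44) and 1 lower (Tgfb1 at -0.60 ± 0.13).

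Among CSF1R ligands and myeloid transcription factors 4 of 15 were higher and 3 lower, with a median of 0.35. Spic, the factor of iron-recycling macrophages, rose by 2.71 ± 0.53 and Tfec by 2.31 ± 0.52, whereas Id3 fell by 2.16 ± 0.16. Genes outside the naming rule, chosen for their roles, did not pass: the ligand Csf1 at 0.73 ± 0.32 (adjusted p 0.0983) and Spi1, which encodes PU.1 and is active in B cells too, at -0.13 ± 0.23 (adjusted p 0.673).

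Markers of other cells that tumour-bearing marrow can hold moved in the same comparison, in which 12.9% of all genes were higher and 18.9% lower. Of 15 tissue macrophage genes other than the members 8 were higher and none lower, with a median of 1.62 log2 units. Endothelial genes were higher in 12 of 13 and lower in 1, with Emcn at 3.26 ± 0.39. Of 13 stromal genes 11 were higher, with the matrix protein Sparc at 4.92 ± 0.36. Of 13 monocyte genes 7 were higher and 1 lower, of 7 megakaryocyte genes 5 were higher, and of 10 osteoclast genes 4 were. No neutrophil or erythroid gene passed. Of 12 dendritic cell genes 1 was higher, of 13 T and NK cell genes 3 were, of 8 plasma cell genes 2 were higher and 3 lower, and of 10 mast cell and basophil genes 1 was higher and 1 lower. The mean log2 levels of 6 lists did not overlap with the controls. They were stroma, at 6.94 to 9.23 against 5.95 to 6.08, endothelium, at 7.34 to 8.85 against 6.77 to 6.93, and tissue macrophage, at 6.69 to 9.35 against 6.41 to 6.52. The others were megakaryocyte, at 7.62 to 10.62 against 6.85 to 7.20, monocyte, at 7.74 to 9.20 against 7.17 to 7.67, and osteoclast, at 7.53 to 9.11 against 7.09 to 7.43. The part of these cells in the members' levels was not tested.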

How the data were processed

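Each of the 24 samples was run on its own mouse gene array. The values are the log2 intensities of 35556 probe sets that the authors deposited, made with RMA in the oligo package per the submitters' processing notes, with versions not given in the sources used here. A single gene symbol was attached to 21789 probe sets, several to 1621 and none to 12146. Symbols were updated through a RefSeq gene table, which matched 21698 probe sets. The probe set with the highest mean over the 24 arrays was kept for each gene, which left 19938 genes, 999 of which had several.

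Groups were taken from the sample labels. limma 3.58.1 in R 4.3.3 was fitted across all genes, and p-values were adjusted by Benjamini-Hochberg over all of them with a threshold of 0.05. The 14 leukaemia set arrays were fitted together, as were the 10 precursor set arrays, and all 24 for the 4 contrasts across sets and the comparison of B220+ cells with WT precursors. Correlations used exact permutation tests (scipy 1.17.1). The limma fit was tested on simulated arrays in which a gene had the same spread in every group. The members differed in spread between groups, which that test does not cover. The members, the 9 pathway lists and the 13 cell type lists were chosen with earlier results of these data known. From each list, the genes named were those with the lowest adjusted p among the ones that passed, at most 3, or the gene with the lowest p where there were none. No scan date was used here as a batch. The number of arrays limits the precision. Other scalings, array weights, filters, controls and omitted replicates were tried.

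Same-numbered arrays of heterozygous and both-copies precursors deviated together, with correlations of 0.21, 0.21 and 0.25. Each lies above the limit of 0.1, so the numbers were taken to pair these samples, from the data and not from a label. The main fits did not use this pairing. The replicate block, which also joined the WT arrays by number, changed no member's call between these genotypes.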

Additional observations from a re-analysis of the deposited data

Results flagged for a closer look

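Of 30 sets of a gene and a group with 4 to 10 arrays, 5 held an array far from the others by Dixon's criterion, which chance meets in about 5% of sets. C1qb and C1qc were at 7.81 and 5.97 on heterozygous leukaemia array 7, the lowest of 7. C1qa was at 6.36 on WT precursor array 4 and Mertk at 5.38 on WT precursor array 2. Adgre1 was at 6.25 on B220+ array 3. The last 3 lie in narrow groups of sorted cells.

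The change against WT differed between leukaemia and precursors for 9 members of the heterozygous genotype by an interaction contrast in limma. The differences were 3.88 log2 units for Csf1r, 4.16 for Mrc1, 4.36 for Vcam1, 3.00 for C1qa, 3.77 for C1qb, 3.15 for C1qc, 2.17 for Adgre1, 1.81 for Cd68 and 2.95 for Mertk. With both copies of Pax5 it differed for 8 members, by 2.24 for Csf1r, 3.24 for Mrc1, 3.38 for Vcam1, 2.52 for C1qa, 3.24 for C1qb, 1.79 for Adgre1, 1.81 for Cd68 and 2.28 for Mertk.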

How the results depend on the processing

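The count of 10 members higher in heterozygous leukaemia than in B220+ cells held under every alternative tried except WT precursors as control, which gave 9. In leukaemia with both copies against B220+ cells the 7 became 3 with array weights, and 0 to 7 when each array was left out in turn. Against precursors with both copies the 9 became 5 with array weights, 4 with only these groups in the fit, and 2 to 8 with an array left out. The 8 of the stage difference became 5 with array weights and 1 to 8 with an array left out. The 0 of precursors with both copies against WT became 1 higher and 1 lower with array weights, 1 higher with the replicate block, 1 lower with only these groups in the fit, and 0 to 1 higher with an array left out. The 0 of B220+ cells against WT precursors became 1 with only these groups in the fit, and 1 lower with array weights, as did that of heterozygous precursors against WT. The 10 of heterozygous leukaemia against heterozygous precursors became 8 with only these groups in the fit and 9 without heterozygous precursor array 3. Csf1r reversed in precursors with both copies against WT, from 0.12 to -0.17 without array 1 of the former, within a range of -0.17 to 0.30. The causes were not tested. Of 1366 values of named members under other settings, 1239 kept direction and side of the threshold, 105 lost it and 21 passed it. Beyond the preleukaemic genotypes, same-numbered arrays all correlated above 0.1 only between leukaemia and precursors with both copies, at 0.17 and 0.18. Outside the preleukaemic genotypes the replicate block changed 5 calls of members named. C1qc passed in leukaemia with both copies against B220+ cells (2.52, adjusted p 0.0248) and in the stage difference with both copies (2.30, adjusted p 0.00651). Cd163 passed in the heterozygous stage difference (1.78, adjusted p 0.0156). Adgre1 lost its call in leukaemia with both copies against B220+ cells (1.40) and in the stage difference with both copies (1.59).

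The counts over all genes moved too. Heterozygous leukaemia against B220+ cells gave 6336 genes, 5006 to 12413 under other settings, and that with both copies 4260, 2281 to 8809. The genotypes gave 373 in leukaemia (83 to 1038) and 5 in precursors (0 to 79). Against WT, heterozygous precursors gave 832 (253 to 5099) and those with both copies 5396 (3536 to 7382). B220+ cells against WT precursors gave 1762 (1660 to 5932), leukaemia against precursors with both copies 9120 (2700 to 9761), and the stage differences 6016 (5405 to 11138) and 7463 (4044 to 9755). Leaving out 1 array gave 2235 to 4755 for leukaemia with both copies against B220+ cells, the lowest without its array 1, 279 to 2137 between the leukaemia genotypes, 1 to 138 between the preleukaemic ones, 37 to 1063 for heterozygous and 2331 to 6015 for both-copies precursors against WT. Median centring moved the median of all genes to -0.20 in heterozygous leukaemia against B220+ cells, and the share of calls that were higher from 40.5% to 16.4%; cyclic loess gave 53.1%. With both copies the shares were 44.4%, 19.1% and 55.8%. Against precursors they were 36.6%, 21.2% and 52.6% for the heterozygous genotype and 39.6%, 31.9% and 51.8% with both copies, and in the stage differences 41.1%, 18.1% and 53.6%, and 40.3%, 26.6% and 52.3%. Repeated quantile normalization moved the share in precursors against WT from 29.4% to 52.8% (heterozygous) and from 42.9% to 54.2% (both copies).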

Other observations

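Neutrophil and granulocyte precursor genes differed between the leukaemia genotypes where the macrophage genes did not pass. Of 16 measured genes 8 were lower in heterozygous leukaemia than in leukaemia with both copies and none higher, against 1.16% of all genes that were lower, with a median difference of -3.59 log2 units. The proteinase Prtn3 differed by -3.98 ± 0.44, the ficolin Fcnb by -3.44 ± 0.33 and the transcription factor Cebpe by -2.49 ± 0.28 (limma, adjusted p 0.000400, 0.000166 and 0.000404). The mean level of the list was 11.94 and 11.32 on the arrays with both copies, 6.93 to 9.60 on the heterozygous arrays and 6.91 to 9.89 on the B220+ arrays. Of 13 T and NK cell genes 3 were lower in heterozygous precursors than in WT precursors and 7 in precursors with both copies, and none was higher; 2.94% and 15.5% of all genes were lower in these comparisons.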
